A study of Mus musculus with 14 samples.

Results

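The TNF receptor family genes of B cells described here are 10: Tnfrsf13c, Tnfrsf13b, Cd40, Tnfrsf26, Tnfrsf1a, Tnfrsf1b, Fas, Cd27 and Tnfrsf18, which encode receptors, and Ltb, which encodes a ligand of the family. They were chosen by name, with earlier results of these data known, so counts of them beside shares of all genes are descriptions. Matching the Ensembl gene IDs of the count tables to mouse gene symbols gave all 10 among 39179 IDs. RNA-seq counts came from splenic follicular B cells of C57BL/6 mice, which are mature B cells that recirculate,, isolated by magnetic beads and kept in culture with 50 ng/ml of BAFF. The question of the series is the joint role of 2 NF-kB subunits, RelB and c-Rel, in B cell survival and development. There were 7 groups of 2 libraries: wild type (wt) at 0h, 6h and 27h, crel-/- (cko, lacking c-Rel) at 0h and 6h, and relb-/-crel-/- (dbko, lacking both) at 0h and 6h. No relb-/- cells with intact c-Rel were analysed here. No culture without BAFF was analysed either, so an effect of BAFF and one of culture alone cannot be told apart wherever 6h or 27h is set against 0h. Whether both libraries of a group come from different mice is not stated in the labels, so a p-value covers only the spread between the libraries at hand, which may be technical.

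Receptors of the TNF family are membrane proteins that bind trimeric ligands and pass the signal on through TRAF adaptors or, in the death receptors, through death domains. In B cells, BAFF binds the BAFF receptor and TACI, the products of Tnfrsf13c and Tnfrsf13b. Engagement of the BAFF receptor or of CD40 spares the kinase NIK from degradation by a complex of TRAF2, TRAF3 and the cIAP proteins, and NIK drives the processing of p100 to p52, the partner of RelB. The canonical branch of NF-kB, which uses c-Rel, is also set off by CD40 and by the TNF receptors.

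Gene counts summed to 10497802 to 11888765 per library. Rel lay between 40.0 and 111 CPM (depth-scaled counts, with TMM factors) in the cko and dbko libraries and between 197 and 683 CPM in wt. Relb was lower in dbko than in wt at 0h (-0.97 ± 0.14, edgeR adjusted p = 0.000836). It was still read, at 53.0 to 88.4 CPM in the 4 dbko libraries, a range that holds both wt libraries of 27h (63.9 and 66.4 CPM). The deleted part of neither gene is known here. The 10 B cell markers summed to 6354 to 11692 CPM in the 14 libraries, with none at 0. Replicate 1 of dbko stood apart from all other libraries on the second principal component at both times. The dbko replicates also differed more from each other, with a chi-square per gene of 33.2 at 0h and 38.2 at 6h against 2.98 to 5.04 in wt, 4.16 in cko at 0h and 23.7 in cko at 6h. Erythroid markers summed to 1311 and 655 CPM in dbko and 14.6 and 15.6 CPM in wt at the start, and all 11 were higher in dbko at both times. By edgeR at an adjusted p under 0.05, 11.7% of all genes differed between dbko and wt at 0h and 26.7% at 6h. In these bulk samples, fewer cells of a type and less RNA per cell cannot be told apart.

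Per length of the gene's exons (RPKM, from GENCODE M21 lengths), Ltb had the highest level of the 10 genes in wt at 0h, with 194 and 196 RPKM in replicates 1 and 2. It was followed by Tnfrsf13c (103 and 107 RPKM), Tnfrsf13b (81.8 and 80.0), Tnfrsf1b (44.8 and 49.3) and Cd40 (41.7 and 39.6). These 5 genes stood between percentiles 89.6 and 98.5 of the genes tested. Tnfrsf18 (10.9 and 9.97 RPKM) and Tnfrsf26 (7.68 and 7.61) were in the middle, at percentiles 61.4 and 53.4. Fas (3.79 and 3.85 RPKM), Tnfrsf1a (0.965 and 0.822) and Cd27 (0.269 and 0.416) were the lowest. No neighbours in this order overlapped. At 6h in wt, Ltb (139 and 147 RPKM) and Tnfrsf13c (127 and 142) overlapped, and Tnfrsf26 (54.0 and 54.9) was above both Tnfrsf13b (41.3 and 40.5) and Cd40 (24.5 and 22.6). All 10 genes passed the filter on low counts, whose threshold was 0.895 CPM. Tnfrsf1a reached it in 9 of 14 libraries, Cd27 in 10 of 14 and the other 8 genes in all 14.

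**Figure D1:**
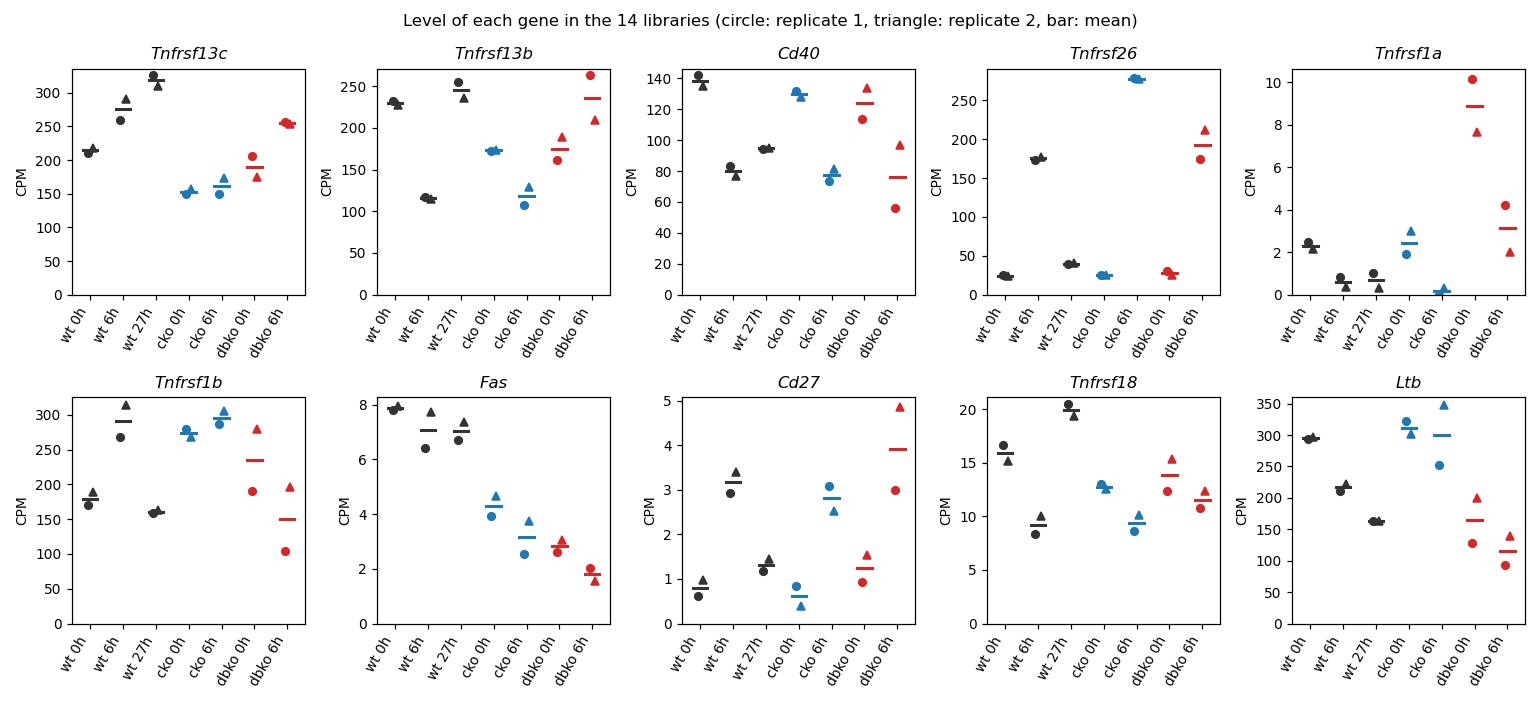
Level in CPM (vertical axes, linear, from 0) of each of the 10 genes in the 14 libraries by group (horizontal axis); circles are replicate 1, triangles replicate 2 and bars the group means. Tnfrsf26 stood at 174 to 278 CPM in the 6h libraries and at 24.5 to 40.3 CPM in all others, while Fas was lower in all cko and dbko libraries than in any wt library.

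Differences between groups are log2 differences ± SE from the edgeR quasi-likelihood model with n = 2 libraries per group, and a gene was called at a Benjamini-Hochberg adjusted p under 0.05 over all 12630 genes tested. In wt, 8 of 10 were called between 6h and 0h, beside 46.2% of all genes. Tnfrsf13c, Tnfrsf26, Tnfrsf1b and Cd27 rose, Tnfrsf13b, Cd40, Tnfrsf1a and Tnfrsf18 fell, and Fas and Ltb were not called. The median of the 10 was -0.30 and that of all genes -0.0044. Between 27h and 0h, 5 of 10 were called (Tnfrsf13c and Tnfrsf26 higher, Cd40, Tnfrsf1a and Ltb lower), beside 47.6%. From 6h to 27h, 5 of 10 were called (Tnfrsf13b and Tnfrsf18 higher, Tnfrsf26, Tnfrsf1b and Cd27 lower), beside 34.1%. In cko at 6h, Tnfrsf26 and Cd27 rose and Tnfrsf13b, Cd40 and Tnfrsf1a fell, 5 of 10 beside 41.9%. In dbko at 6h, Tnfrsf13c, Tnfrsf13b, Tnfrsf26 and Cd27 rose and Cd40 and Tnfrsf1a fell, 6 of 10 beside 39.6%. The counts over time are to be read against the large share of all genes called.

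**Figure D2:**
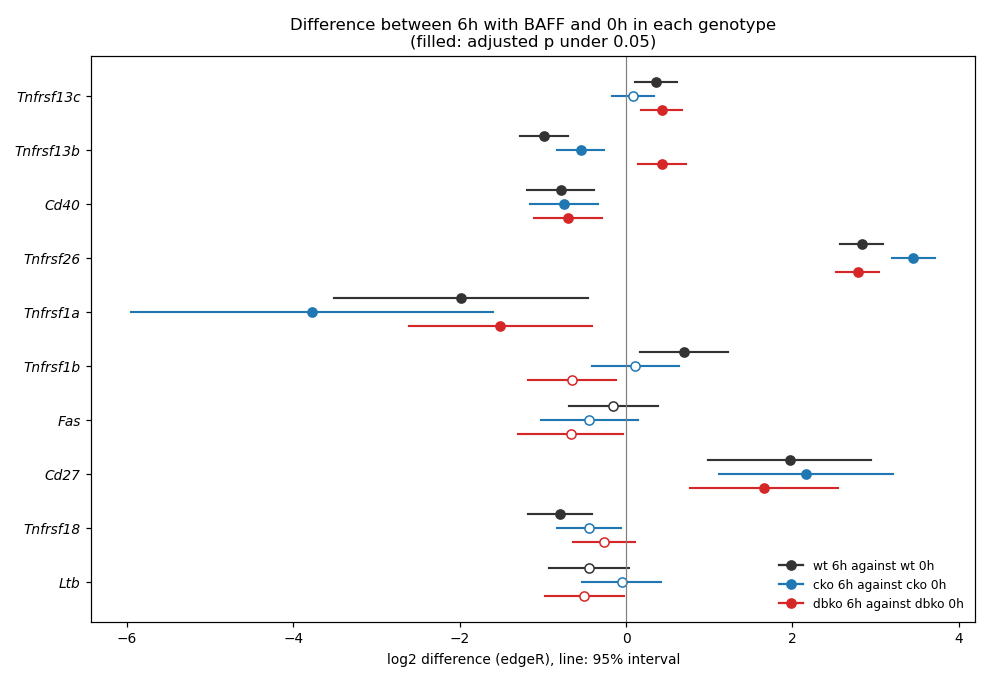
Log2 difference between 6h with BAFF and 0h (horizontal axis) of each gene (vertical axis) in wt, cko and dbko; points are edgeR estimates, lines 95% intervals and filled points adjusted p under 0.05. Tnfrsf26 lay between 2.78 and 3.46 and Cd27 between 1.66 and 2.16, while Tnfrsf13b was at -0.98 in wt and 0.43 in dbko.

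Between genotypes at 0h, edgeR called 0 of 10 in cko against wt, beside 1.5% of all genes. At an unadjusted p under 0.05, 4 of the 10 differed, and the share of all genes at that threshold was not counted. DESeq2 called 1, Tnfrsf13c, beside 3.06% of all genes. The fit without a filter on low counts called 1, Tnfrsf1b, beside 3.04%. That of only the compared groups called 4, Tnfrsf13c, Tnfrsf13b, Tnfrsf1b and Fas, beside 21.5%. In dbko against wt at 0h, Tnfrsf1a was higher and Fas and Ltb were lower, 3 of 10 beside 11.7%. In dbko against cko at 0h, Tnfrsf1a was higher and Ltb lower, 2 of 10 beside 9.03%. At 6h in cko against wt, Tnfrsf26 was higher and Tnfrsf13c and Fas were lower, 3 of 10 beside 3.54%. At 6h in dbko against wt, Tnfrsf13b and Tnfrsf1a were higher and Tnfrsf1b, Fas and Ltb lower, 5 of 10 beside 26.7%. At 6h in dbko against cko, Tnfrsf13c, Tnfrsf13b and Tnfrsf1a were higher and Tnfrsf26, Tnfrsf1b and Ltb lower, 6 of 10 beside 13.4%. Medians of the 10 lay between -0.21 and 0.14 in these 6 comparisons, and those of all genes between -0.023 and 0.052.

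The 6h response is the difference between 6h and 0h, and responses were compared between genotypes. Between cko and wt, edgeR called 0 of 10 beside 1.7% of all genes. At an unadjusted p under 0.05 there were 2, and the share of all genes at that threshold was not counted. DESeq2 gave an adjusted p for only 7733 genes here and called 6.6% of those. Cd27, Fas, Tnfrsf18 and Tnfrsf1a were not among the 7733, and DESeq2 called 0 of the other members. Between dbko and wt edgeR called Tnfrsf13b and Tnfrsf1b, 2 of 10 beside 13.8%. Between dbko and cko it called Tnfrsf13b, 1 of 10 beside 0.934%. Comparisons that share a group share its libraries. Of the 51 calls over the 14 comparisons, 21 held under every alternative run, and 28 were lost when at least 1 library was left out. Such a fit leaves 1 library in a group, so a lost call does not by itself single out the library. The libraries without which a call was lost are named with each gene.

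Fitting only the compared groups ended 16 of the calls, all in comparisons with dbko, and added 12, all in comparisons without it. The calls lost in dbko at 6h against 0h were Tnfrsf13c (adjusted p = 0.164), Tnfrsf13b (adjusted p = 0.201), Cd40 (adjusted p = 0.163), Tnfrsf1a (adjusted p = 0.0878) and Cd27 (adjusted p = 0.0920). In dbko against wt they were Ltb (adjusted p = 0.126) at 0h and Tnfrsf1a (adjusted p = 0.0796), Tnfrsf1b (adjusted p = 0.107) and Ltb (adjusted p = 0.0626) at 6h. In dbko against cko they were Ltb (adjusted p = 0.0739) at 0h and Tnfrsf13c (adjusted p = 0.0932), Tnfrsf26 (adjusted p = 0.200), Tnfrsf1a (adjusted p = 0.0712) and Tnfrsf1b (adjusted p = 0.152) at 6h. Of the differences in response, that of Tnfrsf1b (adjusted p = 0.0962) against wt and that of Tnfrsf13b (adjusted p = 0.288) against cko were lost. The added calls over time in wt were Ltb (adjusted p = 5.46e-06) at 6h against 0h, Tnfrsf1b (adjusted p = 0.0221) and Tnfrsf18 (adjusted p = 0.0115) at 27h against 0h and Tnfrsf13c (adjusted p = 0.0135), Cd40 (adjusted p = 0.00423) and Ltb (adjusted p = 2.14e-06) at 27h against 6h. Those between cko and wt were Tnfrsf13c (adjusted p = 6.21e-06), Tnfrsf13b (adjusted p = 7.99e-05), Tnfrsf1b (adjusted p = 4.44e-08) and Fas (adjusted p = 0.00183) at 0h and Tnfrsf26 (adjusted p = 0.0118) and Tnfrsf1b (adjusted p = 0.0198) for the responses. Among all genes, that setting called 65.8% for wt at 6h against 0h, 21.5% for the comparison of cko and wt at 0h and 10.7% for dbko over 6h. DESeq2 ended the call of Cd27 in wt between 6h and 27h (-1.28, adjusted p = 0.0693), and DESeq2 size factors that of Tnfrsf1a between dbko and cko at 0h (1.83, adjusted p = 0.0515). Without dbko replicate 2 at both times, the rise of Tnfrsf13c in dbko was not called (0.32, adjusted p = 0.0589).

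**Figure D3:**
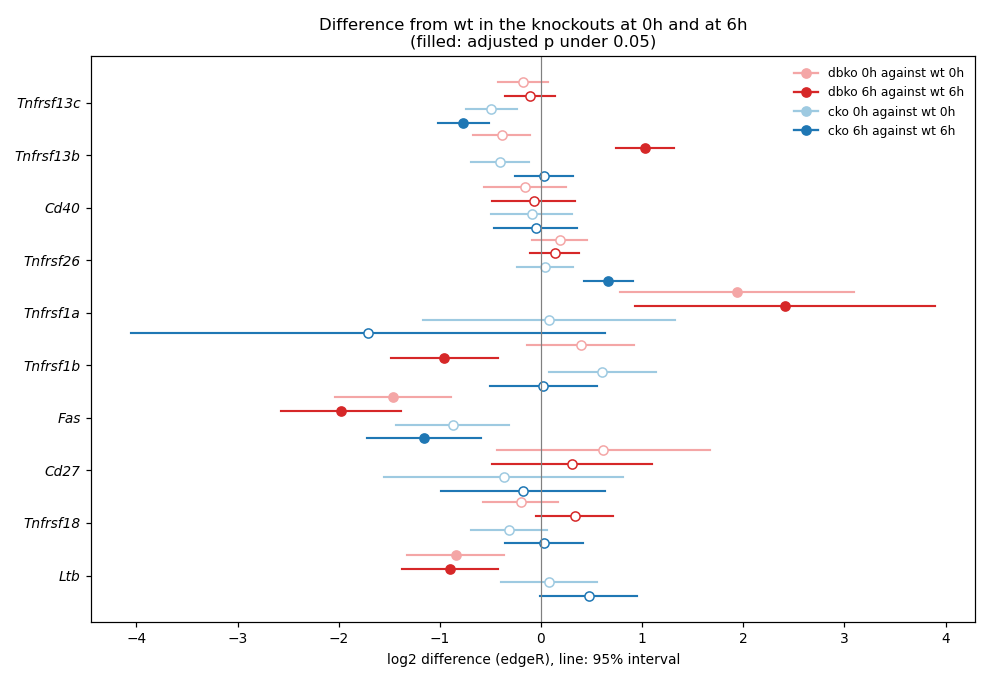
Log2 difference from wt (horizontal axis) of each gene (vertical axis) in cko and dbko at 0h and 6h; points are edgeR estimates, lines 95% intervals and filled points adjusted p under 0.05. Fas lay between -1.97 and -0.87 and Cd40 between -0.16 and -0.051, and the interval of Tnfrsf1a was the widest in each of the 4 comparisons.

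Upstream sequence was found for 8 of the 10 genes in RefSeq on GRCm38.p6. The 4 shown belong to genes called between genotypes, and are the part of the 250 bases before the RefSeq start that lies outside the GENCODE gene. They run 5′ to 3′ on the gene's strand. Capitals mark matches of GGGNNNNNCC, a loose form of the site that NF-kB dimers bind, on either strand, with overlapping matches run together. The stretches are chr15:82224381-82224630 on the minus strand for Tnfrsf13c, and on the plus strand chr11:61126505-61126754 for Tnfrsf13b, chr19:34290409-34290658 for Fas and chr17:35194257-35194438 for Ltb.
Tnfrsf13c: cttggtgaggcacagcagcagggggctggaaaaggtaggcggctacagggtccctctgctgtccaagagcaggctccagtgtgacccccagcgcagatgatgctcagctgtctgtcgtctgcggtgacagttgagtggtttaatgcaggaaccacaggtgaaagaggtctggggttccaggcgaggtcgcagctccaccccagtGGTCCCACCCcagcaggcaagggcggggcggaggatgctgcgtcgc
Tnfrsf13b: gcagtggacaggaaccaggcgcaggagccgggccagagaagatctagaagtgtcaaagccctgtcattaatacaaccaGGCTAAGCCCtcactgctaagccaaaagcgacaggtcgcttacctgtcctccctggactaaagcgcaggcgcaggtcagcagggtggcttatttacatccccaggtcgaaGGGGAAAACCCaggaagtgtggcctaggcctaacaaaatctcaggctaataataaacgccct
Fas: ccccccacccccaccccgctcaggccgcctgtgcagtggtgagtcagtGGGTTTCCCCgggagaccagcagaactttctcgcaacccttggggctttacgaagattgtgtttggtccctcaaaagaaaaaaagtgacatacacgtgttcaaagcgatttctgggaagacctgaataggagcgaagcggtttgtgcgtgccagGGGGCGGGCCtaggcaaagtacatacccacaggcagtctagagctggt
Ltb: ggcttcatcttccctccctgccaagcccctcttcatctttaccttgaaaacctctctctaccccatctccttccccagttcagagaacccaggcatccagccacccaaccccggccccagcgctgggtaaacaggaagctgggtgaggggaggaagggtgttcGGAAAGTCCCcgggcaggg
GGGNNNNNCC occurs in the 250 bases of 7 of the 8 genes, all but Tnfrsf18, and in 45.81% of 32841 promoters. The stricter kappaB consensus occurs in 1 of the 8, Ltb, and in 7.25% of all promoters. In Ltb it begins 87 bases before the RefSeq start, on the minus strand, and is the match in capitals. A match describes letters and was not tested as a binding site.

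Tnfrsf13c encodes the BAFF receptor, the chief survival receptor of mature B cells (chromosome 15, 82221743 to 82224369, minus strand, 3 exon blocks, on GRCm38). It rose in wt and dbko during culture and was lowest in cko. In wt the replicates read 211 and 218 CPM at the start, 260.1 and 291 CPM after 6h and 327 and 309.5 CPM after 27h, each time above the one before. The cko libraries read 149 and 157 CPM at the start and 150.1 and 174 CPM after 6h, which overlapped each other and lay below every other library. The dbko libraries read 206 and 174 CPM at the start and 257 and 254 CPM after 6h, without overlap. The rise by 27h in wt (0.57 ± 0.12, adjusted p = 0.00149) held under every alternative. At 6h the rise was 0.36 ± 0.12, adjusted p = 0.0216 in wt and 0.43 ± 0.12, adjusted p = 0.0107 in dbko, and the difference in cko was 0.083 (95% interval -0.17 to 0.33). At 6h the gene was lower in cko than in wt (-0.77 ± 0.12, adjusted p = 0.00343) and higher in dbko than in cko (0.66 ± 0.12, adjusted p = 0.00373), while dbko against wt gave -0.11 (-0.36 to 0.14). At 0h cko against wt gave -0.49 ± 0.12, adjusted p = 0.0574, and DESeq2 gave -0.45, adjusted p = 0.0132.

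Of these calls of Tnfrsf13c, 3 were lost in fits without 1 library. The difference of cko from wt at 6h was lost without wt 6h replicate 2 (-0.68, adjusted p = 0.0691). The rise in wt was lost without that library or either replicate of wt 0h (0.28 to 0.39, adjusted p 0.0764 to 0.164). The rise in dbko was lost without dbko 0h replicate 2 (0.31, adjusted p = 0.0673).

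Tnfrsf13b encodes TACI, the receptor shared by BAFF and APRIL (chromosome 11, 61126755 to 61149372, plus strand, 8 exon blocks). It fell at 6h in wt and cko and rose in dbko. In wt it went from 232 and 227 CPM to 117 and 115 CPM after 6h and back to 255 and 235 CPM after 27h. In cko it went from 172 and 174 CPM to 108 and 129 CPM, and in dbko from 161 and 189 CPM to 263 and 209 CPM. After 6h both dbko libraries were above every wt and cko library of that time, and at 0h dbko and cko overlapped. The fall in wt (-0.98 ± 0.13, adjusted p = 9.19e-05) and the return from 6h to 27h (1.08 ± 0.13, adjusted p = 0.000108) held under every alternative. In cko it fell (-0.55 ± 0.13, adjusted p = 0.00547) and in dbko it rose (0.43 ± 0.13, adjusted p = 0.0199). The response of dbko differed from that of wt by 1.41 ± 0.19, adjusted p = 0.000881. This and the level at 6h in dbko against wt (1.03 ± 0.13, adjusted p = 0.000240) and against cko (1.00 ± 0.13, adjusted p = 0.000750) held under every alternative. The response of dbko differed from that of cko by 0.98 ± 0.19, adjusted p = 0.0308, and that of cko from wt by 0.44 (95% interval 0.033 to 0.84, adjusted p = 0.269).

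The rise of Tnfrsf13b in dbko depended in size on replicate 1 of dbko. Without it at both times, the difference between 6h and 0h was 0.13, adjusted p = 0.430. The call was also lost without it at 0h alone (0.30, adjusted p = 0.134) or at 6h alone (0.26, adjusted p = 0.151). The fall in cko was lost without cko 6h replicate 1 (-0.42, adjusted p = 0.0535). The difference between the dbko and cko responses was lost without cko 6h replicate 1, dbko 0h replicate 1 or either replicate of cko 0h (0.85 to 0.98, adjusted p 0.0818 to 0.151).

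Most markers of marginal zone and B-1 cells, other kinds of B cell, also rose in dbko at 6h. Of all genes, 39.6% were called as higher or lower at 6h in dbko, 46.2% in wt and 41.9% in cko. Of the 8 markers, all tested, 6 rose and 2 fell in dbko (median 1.36), against 0 and 3 in wt (median 0.0011) and 2 and 3 in cko (median -0.042). At 6h 4 were higher and 0 lower in dbko than in wt, beside 26.7% of all genes, and 3 had a higher response, beside 13.8%. Their sum went from 384 and 922 CPM to 741 and 992 CPM in dbko, from 1187 and 1211 CPM to 665 and 654 CPM in wt and from 1339 and 1398 CPM to 729 and 722 CPM in cko. The rise of the sum in dbko, like that of Tnfrsf13b, was larger in replicate 1 than in replicate 2. None of the 8 was at 0 in a library, and their part in the level of Tnfrsf13b was not tested.

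Per length of exon, the ratio of Tnfrsf13c to Tnfrsf13b in replicates 1 and 2 of wt was 1.26 and 1.33 at the start, 3.08 and 3.51 after 6h and 1.78 and 1.82 after 27h. The ratio in cko was 1.20 and 1.25 at the start and 1.93 and 1.86 after 6h. The ratio in dbko was 1.77 and 1.27 at the start and 1.35 and 1.68 after 6h, and these ranges overlapped, while in wt and cko all 6h values lay above those of 0h. The third receptor that binds BAFF is BCMA, found mainly on plasma cells, and its gene Tnfrsf17 had 0 to 2 counts per library. Tnfsf13b, the gene of BAFF, had 0 to 3 counts and Tnfsf13, the gene of APRIL, 0 to 1.

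Cd40 encodes the receptor through which helper T cells activate B cells (chromosome 2, 165055627 to 165072948, plus strand, 9 exon blocks). It fell at 6h in all 3 genotypes. In wt it went from 142 and 135 CPM to 83.4 and 77.1 CPM after 6h and 94.2 and 95.1 CPM after 27h. In cko it went from 132 and 128 CPM to 73.8 and 81.2 CPM, and in dbko from 114 and 134 CPM to 56.1 and 96.6 CPM. In each genotype both 6h libraries were below both 0h libraries, and the dbko 6h replicates were the farthest apart. The falls were -0.79 ± 0.19, adjusted p = 0.00458 in wt, -0.74 ± 0.19, adjusted p = 0.00716 in cko and -0.70 ± 0.19, adjusted p = 0.0108 in dbko. The response of dbko differed from that of wt by 0.090 (95% interval -0.48 to 0.67) and that of cko by 0.043 (-0.53 to 0.62). At 27h in wt it was still lower than at the start (-0.55 ± 0.19, adjusted p = 0.0288). Of these calls, the fall in wt at 6h held under every alternative. The fall in cko was lost without cko 6h replicate 1 (-0.68, adjusted p = 0.0579), that in dbko without dbko 0h replicate 2 (-0.57, adjusted p = 0.0674), and that at 27h without any 1 of its 4 libraries (-0.59 to -0.51, adjusted p 0.0790 to 0.120). At 6h dbko against wt gave -0.071 (-0.48 to 0.34), but without dbko 6h replicate 2 Cd40 was called as lower than in wt (-0.52, adjusted p = 0.00891) and in cko (-0.47, adjusted p = 0.0205). The fall in dbko was -1.14 without that library and -0.36 without dbko 6h replicate 1, and was called in both fits. Between 6h and 0h, 46.2% of all genes were called as higher or lower in wt, 41.9% in cko and 39.6% in dbko. Of the 10 B cell markers, all tested, 7 fell at 6h in wt (median -1.21), 8 in cko (median -0.87) and 7 in dbko (median -0.67), with 0 higher in each. Their sum went from 11330.3 and 11692 CPM to 6354 and 6401 CPM in wt, from 10960.0 and 10531 CPM to 6624 and 6685 CPM in cko and from 9327 and 11029 CPM to 7465 and 6927 CPM in dbko, and its part in the fall of Cd40 was not tested. Cd40lg, the gene of its ligand, which T cells make, had 0 to 2 counts per library.

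Tnfrsf26 made the largest change of the 10 genes at 6h in wt and dbko. It encodes a mouse member of the family (chromosome 7, 143607659 to 143628722, minus strand, 9 exon blocks) and lies beside Tnfrsf22 and Tnfrsf23, which encode decoy receptors that bind TRAIL. In wt it went from 24.7 and 24.5 CPM to 174 and 177 CPM after 6h and 39.0 and 40.3 CPM after 27h. In cko it went from 25.1 and 25.6 CPM to 278 and 278 CPM, above every library of the other groups. In dbko it went from 30.6 and 25.3 CPM to 174 and 211 CPM, overlapping wt at 6h. Between libraries of the same number, the 6h level was 7.04 and 7.21 times that of 0h in wt, 11.1 and 10.9 times in cko and 5.68 and 8.35 times in dbko. The log2 differences were 2.83 ± 0.12, adjusted p = 3.20e-08 in wt, 3.46 ± 0.12, adjusted p = 4.18e-09 in cko and 2.78 ± 0.12, adjusted p = 3.45e-08 in dbko. From 6h to 27h in wt it came down (-2.14 ± 0.12, adjusted p = 1.39e-06) and stayed above the start (0.69 ± 0.12, adjusted p = 0.000618). These 5 calls held under every alternative.

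At 6h Tnfrsf26 was higher in cko than in wt (0.66 ± 0.11, adjusted p = 0.00676) and lower in dbko than in cko (-0.53 ± 0.11, adjusted p = 0.00937). The responses were not called as different, with 0.62 for cko minus wt (95% interval 0.26 to 0.99, adjusted p = 0.0884) and -0.67 for dbko minus cko (-1.04 to -0.31, adjusted p = 0.1004). The difference of cko from wt was lost without cko 6h replicate 2 or either replicate of wt 6h (0.65 to 0.68, adjusted p 0.0503 to 0.0841). That of dbko from cko was lost without cko 6h replicate 1 (-0.53, adjusted p = 0.05003) or dbko 6h replicate 1 (-0.40, adjusted p = 0.0646). The response of cko against wt was called with only the compared groups in the fit (0.59, adjusted p = 0.0118), and that of dbko against cko without a filter (-0.66, adjusted p = 0.0491). The latter was also called without dbko replicate 2 at 0h (-0.80, adjusted p = 0.0184) or at 6h (-0.82, adjusted p = 0.00991). Tnfrsf26 shares exonic bases with the antisense gene E230032D23Rik, and 1.89% of its 50-base words; without strand, reads of the pair cannot be told apart.

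Both neighbours rose with it, at lower levels. Tnfrsf22, 6084 bases away, read 4.06 and 3.78 CPM in wt at the start, 11.4 and 11.5 CPM after 6h and 7.99 and 6.87 CPM after 27h. Tnfrsf23, 37087 bases away, read 1.04 and 1.06, 9.15 and 8.92 and 2.46 and 2.88 CPM at the same times. Both genes, like Tnfrsf26, were highest in wt after 6h. Tnfrsf22 rose at 6h in wt (1.54 ± 0.26, adjusted p = 0.000408), cko (2.22 ± 0.27, adjusted p = 4.09e-05) and dbko (1.37 ± 0.26, adjusted p = 0.00115). Tnfrsf23 rose in wt (3.09 ± 0.27, adjusted p = 2.43e-06), cko (2.97 ± 0.24, adjusted p = 1.95e-06) and dbko (2.99 ± 0.24, adjusted p = 1.84e-06). They share 50-base words with each other and with other genes, 27.42% of those of Tnfrsf22 and 19.31% of those of Tnfrsf23, so the split of reads between them is uncertain. Of the 8 tested genes within 200000 bases of Tnfrsf26, 7 were called in wt at 6h, beside 46.2% of all genes called as higher or lower. All 7 were higher, and the share of all genes that were higher was not counted. Among the 7 was Cars, the gene of a cysteinyl-tRNA synthetase, 7569 bases away (2.28, adjusted p = 1.26e-07).

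**Figure D4:**
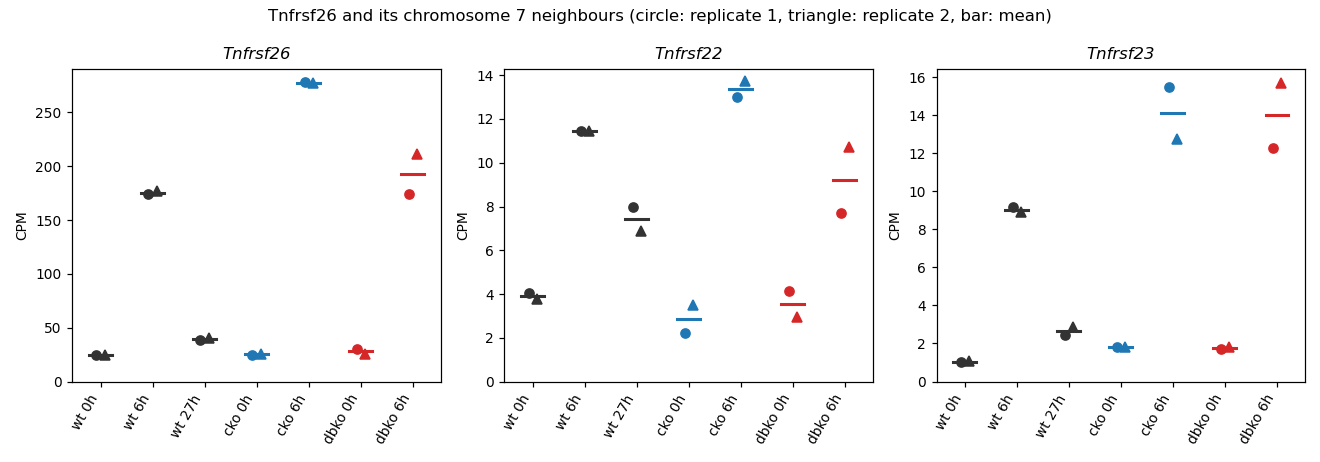
Level in CPM (vertical axes, linear, from 0, scaled separately) of Tnfrsf26, Tnfrsf22 and Tnfrsf23 in the 14 libraries by group; circles are replicate 1, triangles replicate 2 and bars group means. In each genotype both 6h libraries lay above both 0h libraries for all 3 genes.

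Of the receptors for TNF, Tnfrsf1b was abundant and Tnfrsf1a scarcely read. Tnfrsf1b encodes TNFR2, which signals through TRAF2 and has no death domain (chromosome 4, 145213463 to 145246870, minus strand, 10 exon blocks). In wt it went from 171 and 188 CPM to 268 and 314 CPM after 6h and 158 and 163 CPM after 27h. In cko it read 279 and 268 CPM at the start, overlapping wt after 6h, and 287 and 306 CPM after 6h. In dbko it read 191 and 280.1 CPM at the start and 104 and 196 CPM after 6h; the replicates were far apart and the times overlapped. Tnfrsf1b rose in wt at 6h (0.70 ± 0.24, adjusted p = 0.0345) and fell from 6h to 27h (-0.86 ± 0.24, adjusted p = 0.0189). The difference between 6h and 0h was 0.11 in cko (95% interval -0.41 to 0.64) and -0.65 in dbko (-1.18 to -0.12, adjusted p = 0.0523). At 0h both cko libraries were above both of wt, a difference of 0.61 ± 0.24, adjusted p = 0.289, which was called without a filter on low counts (0.65, adjusted p = 0.000525) and with only the compared groups in the fit (0.63, adjusted p = 4.44e-08). The response of dbko differed from that of wt by -1.35 ± 0.34, adjusted p = 0.0252. At 6h dbko was lower than wt (-0.96 ± 0.24, adjusted p = 0.0145) and lower than cko (-0.98 ± 0.24, adjusted p = 0.0224).

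None of these calls of Tnfrsf1b held under every alternative. The rise in wt and the difference of the responses were each lost without any 1 of the 4 wt libraries of 0h and 6h (rise 0.58 to 0.81, adjusted p 0.0607 to 0.164; responses -1.46 to -1.23, adjusted p 0.0539 to 0.0984). The fall by 27h was lost without wt 6h replicate 2 or either replicate of wt 27h (-0.88 to -0.74, adjusted p 0.0826 to 0.112). At 6h dbko against wt was lost without dbko 6h replicate 1 (-0.57, adjusted p = 0.0542) or wt 6h replicate 2 (-0.84, adjusted p = 0.0994). At 6h dbko against cko was lost without dbko 6h replicate 1 (-0.60, adjusted p = 0.0843) or either replicate of cko 6h (-1.03 to -0.93, adjusted p 0.0882 to 0.10). The difference between 6h and 0h in dbko was called without dbko 6h replicate 2 (-1.18, adjusted p = 0.000554), without dbko 0h replicate 1 (-0.91, adjusted p = 0.0212) and with DESeq2 (-0.68, adjusted p = 0.0130), DESeq2 size factors (-0.68, adjusted p = 0.0433) and no filter (-0.69, adjusted p = 1.57e-05). With the replicate number as a block it was called too (-0.67, adjusted p = 0.0165). Without replicate 1 of dbko at both times it was -0.52, and without replicate 2 at both times -0.87. Without dbko 6h replicate 2, the 6h difference was -1.48, adjusted p = 0.000149 from wt and -1.504, adjusted p = 0.000167 from cko.

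Tnfrsf1a encodes TNFR1, the TNF receptor with a death domain (chromosome 6, 125349362 to 125362484, plus strand, 11 exon blocks). Its counts in wt were 24 and 22 at the start, 9 and 4 after 6h and 12 and 4 after 27h. In cko they were 18 and 30 at the start and 0 and 4 after 6h, and in dbko 108 and 80 at the start and 52 and 26 after 6h. Scaled for depth, the dbko libraries of 0h were the highest of all, at 10.1 and 7.66 CPM against 2.50 and 2.13 CPM in wt. It was higher in dbko than in wt at 0h (1.94 ± 0.53, adjusted p = 0.0351) and 6h (2.41 ± 0.68, adjusted p = 0.0167), and than in cko at 0h (1.86 ± 0.53, adjusted p = 0.0478) and 6h (4.12 ± 0.99, adjusted p = 0.00565). It fell at 6h in wt (-1.99 ± 0.70, adjusted p = 0.0288), cko (-3.77 ± 1.00, adjusted p = 0.00268) and dbko (-1.51 ± 0.51, adjusted p = 0.0322), and was lower at 27h than at the start in wt (-1.79 ± 0.67, adjusted p = 0.0385). Of these 8 calls, the fall in cko held under every alternative. It and the difference of dbko from cko at 6h rest on 4 counts in cko at 6h. Without cko 6h replicate 2 the fall in cko was -7.77, adjusted p = 0.00338 and the difference of dbko from cko 8.11, adjusted p = 0.0149, with 0 counts left in cko at 6h, and these sizes depend on the prior count.

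Without dbko 0h replicate 1, Tnfrsf1a at 0h was not called against wt (1.72, adjusted p = 0.166) or cko (1.61, adjusted p = 0.270). These calls were also lost without either replicate of wt 0h (1.83 to 2.06, adjusted p 0.180 to 0.221) or of cko 0h (1.58 to 2.22, adjusted p 0.178 to 0.283). At 6h the difference from wt was lost without dbko 6h replicate 1 (1.802, adjusted p = 0.0913) or wt 6h replicate 2 (1.91, adjusted p = 0.148), and that from cko without cko 6h replicate 1 (3.21, adjusted p = 0.0512). The fall in wt was lost without either replicate of wt 0h or replicate 2 of wt 6h (-2.10 to -1.48, adjusted p 0.0711 to 0.187). The fall by 27h was lost without either replicate of wt 0h or replicate 2 of wt 27h (-1.90 to -1.17, adjusted p 0.0893 to 0.251), and was -2.81, adjusted p = 0.0309 without wt 27h replicate 1. The fall in dbko was lost without dbko 0h replicate 1 (-1.31, adjusted p = 0.110) or dbko 6h replicate 2 (-1.08, adjusted p = 0.118).

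Markers of other spleen cells also differed between these libraries. The 16 monocyte and macrophage markers summed to 207 and 205 CPM in wt at the start, 41.8 and 41.0 CPM after 6h and 73.1 and 79.2 CPM after 27h. They summed to 43.4 and 37.9 CPM in cko at the start and 28.3 and 29.99 CPM after 6h, and in dbko to 283 and 165 CPM and 329.6 and 103 CPM. In this sum, as in Tnfrsf1a, replicate 1 of dbko was above replicate 2 at both times. Of the 14 tested, 12 fell in wt at 6h, beside 46.2% of all genes called as higher or lower. In dbko against wt, 12 were higher at 6h and 1 at 0h, beside 26.7% and 11.7% of all genes. From 0 to 6 of the 16 were at 0 in a library, and Adgre1, the gene of the macrophage antigen F4/80, read 9.41 to 58.8 CPM. The 11 erythroid markers summed to 243 and 111 CPM in dbko and 6.51 and 8.74 CPM in cko after 6h, and to 70.7 and 77.3 CPM in cko at the start. In cko at the start the macrophage sum was below that of wt, while Tnfrsf1a read 1.90 and 2.98 CPM there, overlapping wt. The 7 dendritic cell markers summed to 32.3 and 30.9 CPM in wt at the start, 17.3 and 17.3 CPM after 6h and 17.0 and 17.1 CPM after 27h, and to 32.0 and 32.9 CPM in cko at the start and 14.7 and 16.2 CPM after 6h. In dbko they summed to 86.7 and 86.2 CPM at the start and 36.4 and 21.2 CPM after 6h. This sum was highest in dbko at the start, overlapped between cko and wt at the start and was lower after 6h in each genotype. Flt3 alone read 9.93 to 29.6 CPM over the 14 libraries, so much of the smaller sums is that gene. Of the 6 dendritic cell markers tested, 4 were higher in dbko than in wt at 0h, beside 11.7% of all genes. At 6h 3 were higher and 1 lower, beside 26.7%. From 0 to 4 of the 7 were at 0 in a library. The 9 neutrophil markers summed to 20.7 and 4.89 CPM in dbko and 0.729 and 0.968 CPM in wt at the start, with 3 to 8 at 0 in a library. The part of these cells in the level of Tnfrsf1a was not tested.

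**Figure D5:**
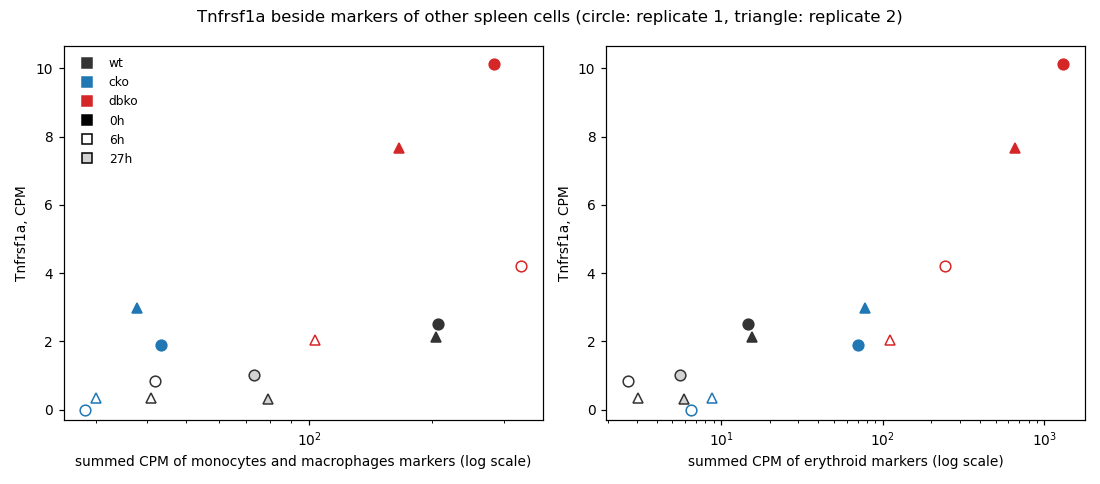
Tnfrsf1a in CPM (vertical axes) against the summed CPM of monocyte and macrophage markers (left) and of erythroid markers (right) on log scales, in the 14 libraries; colour gives the genotype, fill the time and shape the replicate. The dbko libraries of 0h lay highest, at 10.1 and 7.66 CPM, and were also the highest in erythroid markers.

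Tnf, the gene of the ligand of both receptors, went from 17.1 and 17.6 CPM to 27.2 and 28.7 CPM in wt and from 57.5 and 40.9 CPM to 15.9 and 16.6 CPM in dbko. Its libraries of cko read 19.8 and 20.4 CPM at the start and 17.8 and 17.2 CPM after 6h. Tnf rose in wt (0.69 ± 0.18, adjusted p = 0.00716) and fell in dbko (-1.60 ± 0.17, adjusted p = 2.46e-05), and the responses differed by -2.28 ± 0.25, adjusted p = 0.000371.

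Fas encodes the death receptor that starts apoptosis on contact with FASL (chromosome 19, 34290666 to 34327772, plus strand, 12 exon blocks). It was lower in dbko than in wt at both times, and none of the comparisons over time called it. In wt it read 7.82 and 7.94 CPM at the start, 6.41 and 7.73 CPM after 6h and 6.71 and 7.35 CPM after 27h. In cko it read 3.91 and 4.67 CPM at the start and 2.55 and 3.76 CPM after 6h, below every wt library. In dbko it read 2.63 and 3.07 CPM at the start and 2.02 and 1.56 CPM after 6h, below cko of the same time. A wt library held 70 to 92 counts of Fas, a cko library 29 to 47 and a dbko library 20 to 32. The difference of dbko from wt was -1.46 ± 0.27, adjusted p = 0.00351 at 0h and -1.97 ± 0.27, adjusted p = 0.000379 at 6h, and both held under every alternative. The difference of cko from wt was -1.16 ± 0.26, adjusted p = 0.0288 at 6h and -0.87 ± 0.26, adjusted p = 0.136 at 0h. The first was lost without any 1 of its 4 libraries (-1.47 to -0.91, adjusted p 0.0604 to 0.266). Between dbko and cko it was -0.82 at 6h (95% interval -1.44 to -0.20, adjusted p = 0.0778) and -0.59 at 0h (-1.19 to 0.0025). Between 6h and 0h it was -0.16 in wt (-0.69 to 0.38), -0.44 in cko (-1.02 to 0.14) and -0.67 in dbko (-1.30 to -0.035).

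Fadd, the death domain adaptor of Fas, read 11.8 and 14.6 CPM in wt and 15.8 and 15.1 CPM in dbko at the start. Casp8, the caspase it recruits, read 74.8 and 86.0 CPM and 79.6 and 73.9 CPM. Neither was called between genotypes. Cflar, which encodes the caspase-8 inhibitor c-FLIP, was lower in dbko than in wt at 0h (-0.69, adjusted p = 0.00471) and 6h (-0.94, adjusted p = 0.000377) and in cko than in wt at 6h (-0.72, adjusted p = 0.00933). Fasl, the gene of the ligand, had 0 to 5 counts per library.

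Cd27 and Tnfrsf18 encode costimulatory receptors better known from T cells. Cd27, the receptor of CD70 (chromosome 6, 125232622 to 125237010, minus strand, 5 exon blocks), read 0.625 and 0.968 CPM in wt at the start, 2.93 and 3.40 CPM after 6h and 1.19 and 1.44 CPM after 27h. It went from 0.846 and 0.398 CPM to 3.08 and 2.53 CPM in cko and from 0.939 and 1.53 CPM to 2.99 and 4.85 CPM in dbko. All 6h libraries were above all others, on 31 to 62 counts against 4 to 18. Cd27 rose at 6h by 1.97 ± 0.45, adjusted p = 0.00283 in wt, 2.16 ± 0.48, adjusted p = 0.00241 in cko and 1.66 ± 0.41, adjusted p = 0.00579 in dbko. The first pair held under every alternative, and the rise in dbko was lost with only its own groups in the fit (1.66, adjusted p = 0.0920). From 6h to 27h in wt it fell (-1.26 ± 0.40, adjusted p = 0.0283), a call lost without any 1 of its 4 libraries (-1.40 to -1.13, adjusted p 0.0772 to 0.159). At 6h cko against wt gave -0.17 (95% interval -0.99 to 0.64) and dbko against wt 0.31 (-0.48 to 1.10). Cd27 lies within the span of Vamp1 on the other strand, with an exonic overlap of 0 bases. Vamp1 also rose in wt at 6h (1.48, adjusted p = 0.00157). Cd27 shares 129 exonic bases and 3.31% of its 50-base words with Mir8113, a miRNA gene on its own strand.

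Tnfrsf18 encodes GITR (chromosome 4, 156026164 to 156028895, plus strand, 3 exon blocks), and in wt it fell at 6h and rose again by 27h. In wt it read 16.7 and 15.2 CPM at the start, 8.33 and 10.0 CPM after 6h and 20.5 and 19.3 CPM after 27h. It went from 13.0 and 12.5 CPM to 8.62 and 10.1 CPM in cko and from 12.4 and 15.3 CPM to 10.8 and 12.4 CPM in dbko. The 6h libraries of each genotype were below those of 0h. The fall in wt (-0.79 ± 0.18, adjusted p = 0.00276) and the rise from 6h to 27h (1.11 ± 0.17, adjusted p = 0.000545) held under every alternative. The difference between 6h and 0h was -0.44 in cko (95% interval -0.83 to -0.061, adjusted p = 0.0602) and -0.26 in dbko (-0.64 to 0.11). Tnfrsf18 shares 18.72% of its 50-base words with the antisense gene Gm16008, so its level is uncertain. Tnfsf18, the gene of its ligand, read 2.08 and 1.84 CPM in wt at the start and fell at 6h (-1.56, adjusted p = 0.0144). Cd70, the gene of the ligand of CD27, had 0 to 2 counts per library. Of the T cell markers, Cd3d, Cd3e and Cd3g read at most 0.423, 0.183 and 0.313 CPM in the 14 libraries. All 19 summed to 147 to 805 CPM, led by Cd2 (44.1 to 690.4 CPM) and Lck (34.7 to 95.8 CPM), and 2 to 7 were at 0 in a library. As Cd3d, Cd3e and Cd3g add so little to it, this sum is not a measure of T cells. The part of T cells in the levels of Cd27 and Tnfrsf18 was not tested.

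Ltb encodes lymphotoxin beta, which with lymphotoxin alpha forms the ligand that B cells show to the LTBR of stromal cells to shape follicles (chromosome 17, 35194439 to 35196320, plus strand, 2 exon blocks). It was lower in dbko than in the other genotypes. In wt it read 294 and 297 CPM at the start, 211 and 222 CPM after 6h and 163 and 163 CPM after 27h, each time below the one before. In cko it read 322 and 301 CPM at the start and 253 and 347 CPM after 6h, overlapping. In dbko it read 128 and 200.3 CPM at the start and 92.7 and 139.5 CPM after 6h, and replicate 1 was below replicate 2 at both times. The dbko libraries lay below every wt and cko library of the same time. Ltb in dbko was lower than in wt at 0h (-0.85 ± 0.22, adjusted p = 0.0289) and 6h (-0.90 ± 0.22, adjusted p = 0.0117), and than in cko at 0h (-0.92 ± 0.22, adjusted p = 0.0233) and 6h (-1.37 ± 0.22, adjusted p = 0.00274). In wt it was lower at 27h than at the start (-0.86 ± 0.22, adjusted p = 0.00710). Between 6h and 0h the difference was -0.45 in wt (95% interval -0.92 to 0.031), -0.054 in cko (-0.53 to 0.42) and -0.50 in dbko (-0.98 to -0.019).

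The fall of Ltb by 27h in wt and its difference between dbko and cko at 6h held under every alternative. Without dbko 0h replicate 1, the differences at 0h were not called against wt (-0.56, adjusted p = 0.217) or cko (-0.67, adjusted p = 0.185). They were also lost without either replicate of wt 0h (-0.85 to -0.84, adjusted p 0.136 to 0.138) or of cko 0h (-0.97 to -0.88, adjusted p 0.110 to 0.138). At 6h the difference from wt was lost without dbko 6h replicate 1 (-0.64, adjusted p = 0.0768) or wt 6h replicate 2 (-0.86, adjusted p = 0.0705). The difference between 6h and 0h in dbko was called without dbko 0h replicate 1 (-0.80, adjusted p = 0.0137), without dbko 6h replicate 2 (-0.82, adjusted p = 0.0158), with DESeq2 (-0.53, adjusted p = 0.0445), without a filter (-0.54, adjusted p = 0.00123) and with the replicate number as a block (-0.50, adjusted p = 0.0441). Without replicate 1 of dbko at both times it was -0.53, and without replicate 2 at both times -0.47. In wt the difference between 6h and 0h was called without a filter (-0.44, adjusted p = 0.00859) and with only the compared groups in the fit (-0.44, adjusted p = 5.46e-06). The 4 follicular B cell markers summed to 2453 and 3429 CPM in dbko and 4533 and 4606 CPM in wt at the start. Against wt, 2 of the 4 were lower in dbko at each time. Of all genes, 11.7% were called as higher or lower at 0h and 26.7% at 6h. The part of these markers in the level of Ltb was not tested.

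Lta, the gene of the partner subunit, read 25.4 and 27.6 CPM in wt at the start, 12.1 and 13.1 CPM after 6h and 4.16 and 6.63 CPM after 27h. It lies 6845 bases from Ltb, with Tnf between them. Lta fell at 6h in wt (-1.07, adjusted p = 0.00886), cko (-1.02, adjusted p = 0.0129) and dbko (-1.14, adjusted p = 0.00854), and was not called between genotypes. Its replicates in dbko at the start read 12.5 and 26.4 CPM. Ltbr, the gene of the receptor, read 0 to 3.16 CPM.

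The rest of the pathway was taken from lists that hold none of the 10. Of 19 other receptor genes of the family 14 were tested, and 4 rose and 3 fell in wt at 6h, with a median of 0.20, beside 46.2% of all genes called. Tnfrsf9, the gene of 4-1BB, went from 0.208 and 0.194 CPM to 1.83 and 2.72 CPM and rose (3.43, adjusted p = 0.000626). Ngfr, the gene of the low-affinity neurotrophin receptor, went from 8.75 and 10.8 CPM to 0.824 and 0.255 CPM and fell (-4.18, adjusted p = 3.90e-05). In dbko against wt at 6h, 5 of the 14 were higher and 1 was lower, beside 26.7% of all genes, and Tnfrsf9 was among the higher (1.501, adjusted p = 0.0154). In cko against wt at 6h edgeR called 0 of the 14, beside 3.54% of all genes. At an unadjusted p under 0.05 there were 3, and the share of all genes at that threshold was not counted. Of 17 other ligand genes 7 were tested, and 3 rose and 3 fell in wt at 6h, beside 46.2% of all genes.

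The 30 genes of adaptors and signal proteins were all tested. In wt 6 rose and 5 fell at 6h, with a median of 0.034, and 4 rose and 15 fell by 27h, with a median of -0.28. Of all genes 46.2% were called at 6h and 47.6% at 27h. In dbko against wt at 6h 2 were higher and 11 lower (median -0.24), beside 26.7% of all genes, and in cko against wt 1 was higher and 4 lower (median 0.059), beside 3.54%. Traf1, an adaptor of TNFR2 and CD40, went from 98.4 and 103 CPM to 242 and 249.8 CPM in wt, from 137 and 128 CPM to 160.2 and 153 CPM in cko and from 65.1 and 72.9 CPM to 40.9 and 54.6 CPM in dbko. It rose in wt (1.29, adjusted p = 1.06e-05) and fell in dbko (-0.53, adjusted p = 0.00709), and the responses differed by -1.82, adjusted p = 0.000257. Traf3, which holds NIK low in resting B cells, fell at 6h in wt (-0.78, adjusted p = 0.000401), cko (-0.64, adjusted p = 0.00168) and dbko (-0.51, adjusted p = 0.00756). Map3k14, the gene of NIK, was lower in dbko than in wt at 0h (-0.70, adjusted p = 0.0186), where its dbko replicates read 49.7 and 81.0 CPM. Birc3, which encodes cIAP2, fell at 6h in cko (-0.63, adjusted p = 0.00213) and dbko (-1.25, adjusted p = 1.91e-05). Tnfaip3, which encodes the NF-kB inhibitor A20, fell at 6h in wt (-1.97, adjusted p = 0.000190), cko (-3.56, adjusted p = 5.24e-06) and dbko (-2.44, adjusted p = 6.11e-05).

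Among the 10 genes, log2 CPM over the 14 libraries was most alike for Tnfrsf26 and Cd27 (Pearson's r = 0.90) and least alike for Cd40 and Tnfrsf26 (r = -0.85). These 14 points share 7 groups, so the values are descriptions. Among the other genes tested whose average log2 CPM was 3 or more, the 3 most like Tnfrsf26 were Zbtb5, Golga4 and Smad3 (r = 0.98 to 0.99). They were Rfx1, Igkc and Chrac1 for Cd40 (0.96 to 0.97), Aspscr1, Brat1 and Scaf1 for Cd27 (0.95 to 0.96) and Rnf145, Znrf2 and Tmem64 for Ltb (0.94 to 0.96). For Tnfrsf1a they were Stom, Rap1gap2 and Wfdc17 (0.92 to 0.93), for Tnfrsf13b Tmem229b, C2cd5 and Cdh17 (0.93 each) and for Tnfrsf18 Ahdc1, Itm2c and Ints9 (0.92 to 0.93). For Fas they were Ifi206, Cd200 and Hmgn1 (0.90 to 0.91), for Tnfrsf1b Zc3h15, Arnt and Gad1 (0.89 to 0.90) and for Tnfrsf13c Mrps5, Fam129a and Snrpc (0.88 to 0.90).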

How the data were processed

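Poly-dT primed RNA of follicular B cells was sequenced on Illumina libraries in 7 groups of 2, replicate 1 in lane 7 and replicate 2 in lane 8, per the labels. The values deposited by the authors are raw counts of reads per Ensembl gene ID, 1 table per library, with no normalization. The submitters' processing notes name CASAVA 1.8.2; which aligner, counting tool, build and annotation were used, and whether strand was counted, are points not given in the sources used here. Reads in no feature (5.21 to 11.46%) or with several alignments (38.77 to 49.85%) stand in rows of their own and were left out, so reads that near copies share are missing from gene counts.

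The 10 genes and the lists were chosen with earlier results of these data known. Symbols and lengths came from GENCODE M21 on GRCm38 (37607 of 39179 IDs), which may not be the authors' build, and promoters from RefSeq. Counts were scaled by TMM (factors 0.882 to 1.12), filtered by filterByExpr by group and fitted over all 14 libraries with edgeR 4.0.16 (R 4.3.3; glmQLFit robust, glmQLFTest, two-sided, 7 residual degrees of freedom, common biological coefficient of variation 0.144), with Benjamini-Hochberg adjustment over 12630 genes. SE and 95% intervals are Wald values from that fit. The model was also run on simulated counts, whose outcome is not given here, so nothing is concluded from that run. Named besides the 10 are Rel and Relb, up to 4 tested genes of a list with the smallest adjusted p in a comparison, ligands and adaptors of the 10, and for each of the 10 the 3 genes with the highest Pearson correlation; Cars, Vamp1 and the marker genes named were chosen after their values were seen. Alternatives were DESeq2 size factors, no filter, DESeq2 1.42.0, a block for the replicate number, the compared groups alone, and each library left out; leaving out a dbko replicate at both times was planned for replicate 1, and was added for replicate 2 after seeing the data. Replicate numbers were checked for pairing by correlating deviations from group means, and 4 of 21 pairs of groups exceeded 0.1. The highest was that of dbko at 0h and 6h (0.48), against 0.031 in wt and 0.098 in cko. Same-numbered dbko libraries thus deviated alike at both times. The main fit did not take the numbers to pair libraries, in dbko or elsewhere. The replicate block is common to all groups, so it cannot take up a pairing within dbko alone. The effect of such a pairing on dbko at 6h against 0h was not tested.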

Additional observations from a re-analysis of the deposited data

Results flagged for a closer look

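Responses at 6h differed between genotypes, by the test of the difference itself, for 2 genes. The response of Tnfrsf13b, the gene of TACI, in dbko differed by 1.41 on the log2 scale from that in wt (edgeR adjusted p = 0.000881) and by 0.98 from that in cko (adjusted p = 0.0308). Its level was higher at 6h than at 0h in both lanes of dbko and lower in both lanes of wt and of cko. The response of Tnfrsf1b, the gene of TNFR2, in dbko differed from that in wt by -1.35 (edgeR adjusted p = 0.0252). Its values were lower at 6h than at 0h in both lanes of dbko and higher in both lanes of wt. Taken without lanes, its dbko libraries overlapped between 0h (191 and 280 CPM) and 6h (104 and 196 CPM). The difference of Tnfrsf13b from wt held under every alternative. The other pair did not: that of Tnfrsf13b from cko was lost in 4 of 8 fits without 1 library and with only the compared groups in the fit (0.98, adjusted p = 0.288), and that of Tnfrsf1b from wt in 4 of 8 and with that setting (-1.35, adjusted p = 0.0962).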

How the results depend on the processing

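Of 140 pairs of a gene and a comparison, 51 were called. Of these calls 21 held under every alternative, 28 were lost without at least 1 library and 18 under at least 1 other alternative, and 0 pairs reversed. Leaving out 1 library leaves a group with 1, taken to vary as the other groups do. In many such fits the share of all genes called moved too, down in some and up in others. Those shares are not given here. Calls lost or gained without 1 library, and the counts that follow, therefore do not set the 10 genes apart from other genes. Without 1 library, the number of the 10 genes called in wt was 5 to 7 (6h against 0h), 3 to 4 (27h against 0h) and 3 to 4 (27h against 6h), and at 6h against 0h it was 3 to 5 in cko and 4 to 7 in dbko. Between genotypes at 0h it was 0 to 0 (cko, wt), 1 to 4 (dbko, wt) and 0 to 3 (dbko, cko), at 6h 0 to 2, 2 to 6 and 3 to 7 in the same order, and for the responses 0 to 0, 1 to 2 and 0 to 3. DESeq2 size factors gave 1 call for dbko and cko at 0h, beside 8.96% of all genes. No filter gave 1 for cko and wt at 0h, beside 3.04%, and 3 for the responses of dbko and cko, beside 2.7%. DESeq2 gave 1 for cko and wt at 0h, beside 3.06%. With only the compared groups in the fit, wt at 27h against 6h gave 8 beside 60.2% of all genes, and dbko at 6h against 0h 1 beside 10.7%. The 0h comparisons gave 4 beside 21.5% (cko, wt) and 1 beside 3.78% (dbko, cko). The 6h comparisons gave 2 beside 6.71% (dbko, wt) and 2 beside 1.75% (dbko, cko). The responses gave 2 beside 9.89% (cko, wt), 1 beside 4.97% (dbko, wt) and 0 beside 0.00792% (dbko, cko). Leaving out replicate 2 of dbko at both times, chosen after seeing the data, leaves 1 library in each dbko group. Counts of the 10 genes under it are not given either. The causes were not tested.

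The replicate block left the number of calls as it was in every comparison but dbko at 6h against 0h, where it gave 8 with Tnfrsf1b (-0.67, adjusted p = 0.0165) and Ltb (-0.50, adjusted p = 0.0441) added. Deviations of same-numbered libraries correlated by -0.17 to 0.48, with 4 of 21 pairs of groups over 0.1; the highest is that of dbko at 0h and 6h, against 0.031 in wt and 0.10 in cko. Depth limits Tnfrsf1a, at 0 to 108 counts per library, Cd27 (4 to 62) and Fas (20 to 92) the most.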
